A study of Saccharomyces cerevisiae with 4 samples.

Results

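Snf2 is the ATPase of SWI/SNF, a complex of budding yeast that slides and evicts nucleosomes at promoters. RNA of a strain lacking SNF2 was compared with wild-type BY4741 RNA on 1 array, described here across every measured gene beside the array on which BY4741 was hybridised against itself. Both arrays were taken by their sample titles. The null array is 1 of 4 samples in the series and gave a value for 6031 of 6195 features, of which 5411 were named genes out of 5547 on the platform. The BY4741 array gave values for 5808 features, and 5705 features had a value on both arrays.

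Channel 1 of the null array held RNA of Δsnf2 cells in the BY4741 background, and channel 2 held RNA of wild-type BY4741. On the BY4741 array both channels held BY4741. Cultures were grown to an optical density of 0.8 at 25 C in YPD, which is rich in glucose, and poly(A) RNA was compared on spotted 2-colour arrays. Each sample named 2 scans of opposite dye orientation but gave 1 value per probe, so the 2 scans cannot be compared. A sample is called 1 array here. With 1 array per group there is no replicate error, no test was possible, and the number of arrays limits the precision of every value. The sources used here do not say how the null strain was made or how many clones it represents. BY4741 is a haploid laboratory strain of mating type a that lacks working HIS3, LEU2, MET17 and URA3, and the labels give the null the same background. Those 4 probes read 0.04, -0.24, 0.45 and -0.32 in the null, against -0.02, 0.07, 0.33 and 0.18 on the BY4741 array. None of the 4 was 2-fold from the median of either array. They are counted in the gene lists below, although BY4741 has no working copy of them.

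SWI/SNF was found through mutants that could not switch mating type or ferment sucrose, and it is known as a coactivator that opens promoters covered by nucleosomes. It is not essential, unlike the related complex RSC, and its best-studied promoters include those of phosphate, carbon source and mating type genes. Snf2 can also keep a gene low, as at SER3, where transcription of an upstream noncoding RNA interferes with the promoter.

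Values are deposited log ratios of the named strain over its wild type, read as log2 and centred on the median of each array, so 1 is 2-fold higher and -1 is 2-fold lower than the typical feature. No label or header names the base of the logarithm, and folds hold only if it is 2. The median subtracted was 0.003 for the null and -0.125 for BY4741. A feature was called higher or lower if it was at least 2-fold from the array median and lay outside the central 99% of the BY4741 array. That range ran from -0.49 to 0.43, so every feature past 2-fold lay outside it. The second condition therefore removed no call, and without it the counts were the same, 76 higher and 96 lower. A ratio compares shares of RNA in 2 cultures. More RNA per cell and more cells in a given state, such as a phase of the cell cycle, cannot be told apart.

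In the null, 76 of 6031 features were higher and 96 were lower, which is 1.26% and 1.59%, or 2.85% in all. Each count of called list members below is to be read beside this share. Of 5411 named genes, 69 were higher and 87 lower, which is 1.28% and 1.61%. On the BY4741 array, 2 of 5808 features were at least 2-fold higher and 3 lower, which is 0.0344% and 0.0517%, or 0.0861% in all. The SD across features was 0.44 in the null and 0.16 on the BY4741 array, and the central 95% ran from -0.65 to 0.74 and from -0.31 to 0.30. The balance of the null turned with the size of the difference. At 1.5-fold, 258 features were higher and 197 lower. At 4-fold, 16 were higher and 35 lower. At 16-fold, 1 was higher, SER3, and 5 were lower. The long tail was therefore on the lower side, and moderate differences were more often on the higher side.

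**Figure D1:**
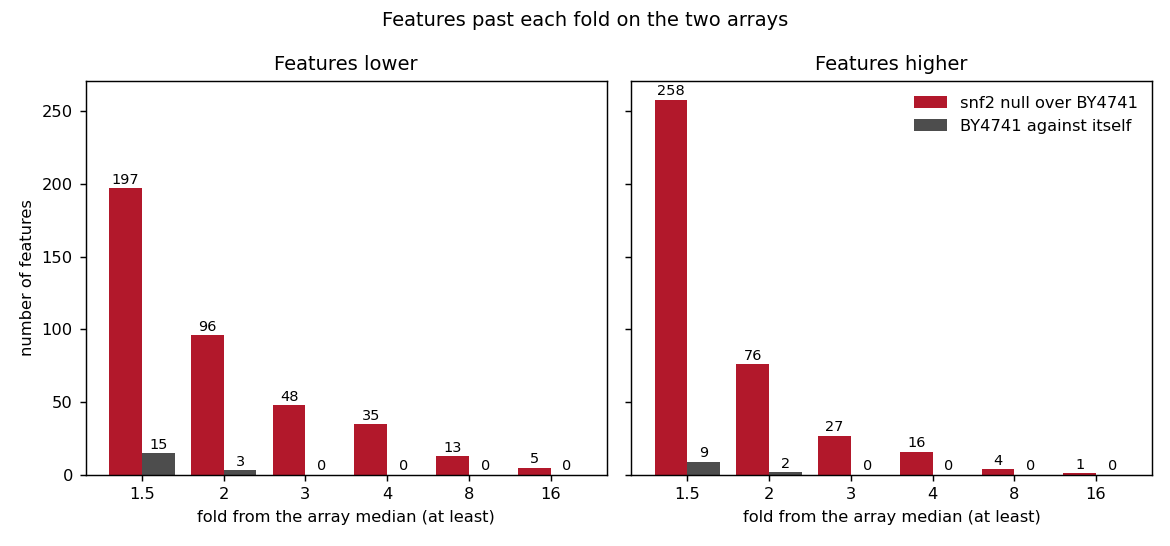
Number of features (vertical axis) at least 1.5-, 2-, 3-, 4-, 8- or 16-fold lower (left) or higher (right) than the array median, for the snf2 null over BY4741 (red bars) and for BY4741 against itself (grey bars). At 3-fold the null had 48 lower and 27 higher features, and BY4741 against itself had 0 and 0.

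SNF2 (YOR290C) read -2.14 in the null, against -0.19 for BY4741 against itself. A deleted gene gives no RNA, and what its probe reads is background or cross-hybridisation, so the value checks the direction of the ratio and gives no fold. The 3 measured genes on one side of it, RRP36, MPD1 and YOR289W, read -0.47, -0.07 and 0.29. The 3 on the other side, YPK9, YOR292C and RPS10A, read 0.49, -0.01 and -0.51. None of these 6 was called, so the low value did not extend to neighbouring genes.

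Genes for the machinery around SWI/SNF lay close to the array median. None of the other 11 SWI/SNF subunits was called. RTT102, shared with RSC, was the lowest of them at -0.24, and SNF6 was the highest at 0.37. Among 14 RSC subunits the range was -0.33 to 0.18. Among 13 genes of the ISWI and CHD remodelers and related ATPases it was -0.42, for MOT1, which strips TATA-binding protein from DNA, to 0.29. SAGA, the histone acetyltransferase complex that acts with SWI/SNF at many promoters, ran from -0.42 to 0.37 over 19 subunits. Mediator, which links activators to RNA polymerase II, ran from -0.25 to 0.37 over 25. Subunits of INO80 and SWR1, which handle the histone variant H2A.Z, included the highest value among these complexes, IES6 at 0.92, against 0.01 on the BY4741 array. Of these 6 lists, only SWI/SNF held a called gene, SNF2 itself. All 11 measured histone genes lay above the median, from 0.01 for HTA1 and CSE4 to 0.69 for HHT2, with a list median of 0.25 in the null and -0.01 on the BY4741 array. The H3 and H4 genes were the 4 highest, HHT2 at 0.69, HHT1 at 0.61, HHF1 at 0.57 and HHF2 at 0.46. The H2A genes HTA1 and HTA2 read 0.01 and 0.19.

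Phosphate genes held the lowest values of the array. In the phosphate pathway, the kinase Pho85 with its cyclin Pho80 inactivates the activator Pho4 while phosphate is plentiful, and the inhibitor Pho81 releases Pho4 when it is scarce. Of 8 measured phosphatase genes, 5 were lower. The secreted acid phosphatases PHO11 and PHO12 read -5.11 and -4.86 in the null, against 0.30 and 0.19 on the BY4741 array, and are near-identical, so their probes may report on each other. PHO5, the main secreted acid phosphatase, read -2.86, and its neighbour PHO3 read -2.005. PHO8, the vacuolar alkaline phosphatase, read -1.36. The remaining 3 phosphatases, DDP1, PHM8 and PHO13, read -0.34, -0.19 and 0.20 and were not called.

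The phosphate transporters split by affinity. The high-affinity transporters PHO84 and PHO89 read -4.74 and -2.92 in the null, against 0.05 and 0.64 on the BY4741 array. The low-affinity transporters PHO87 and PHO90 read 0.61 and 0.06, and the vacuolar transporter PHO91 read 0.22. PHO86, which lets Pho84 leave the endoplasmic reticulum, read -0.83, and GIT1, which imports glycerophosphoinositol, read -0.09. Only the high-affinity pair was called.

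Polyphosphate is the phosphate store of the vacuole, made by the VTC complex. All 4 VTC genes were lower, with VTC3 at -3.03, VTC4 at -1.94, VTC1 at -1.83 and VTC2 at -1. VTC2 sat exactly at the threshold and had no value on the BY4741 array. PHM6, a phosphate-regulated gene of unknown function, read -1.98. The polyphosphatases were mixed. PPN2 was lower at -1.49, PPX1 read -0.17 and PPN1 read 0.67. Among the signalling genes, SPL2, a small protein that represses low-affinity uptake, read -1.94 and PHO81 read -1.59. The transcripts of PHO4, PHO2, PHO80 and PHO85 read 0.03, 0.23, -0.07 and 0.09, all inside the rule. The low values thus lay in the transporters, phosphatases, polyphosphate synthesis and the PHO81 and SPL2 regulators, while the activator and kinase transcripts stayed near the median.

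Sulphur genes held many of the highest values. Yeast takes up sulphate, activates it, reduces it to sulphide and builds homocysteine and methionine, and the activator Met4 with Cbf1, Met28, Met31 and Met32 controls these genes. Of 10 measured genes of sulphate uptake and reduction, 7 were higher and 0 lower, with a median of 1.90 in the null and 0.06 on the BY4741 array. In pathway order, the permease SUL2 read 3.14, the ATP sulphurylase MET3 3.95, the adenylylsulphate kinase MET14 2.07 and the phosphoadenylylsulphate reductase MET16 1.05. The sulphite reductase subunits MET5 and MET10 read 1.95 and 2.25, and MET1, which makes their sirohaem cofactor, read 1.85. The other sulphate permease, SUL1, read 0.12, and MET8 and MET22 read 0.70 and 0.39. Every step from sulphate to sulphide therefore had at least 1 called gene.

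Further along the pathway fewer genes were called. Of 15 measured genes of methionine and S-adenosylmethionine synthesis, 4 were higher. These were MET6, the methionine synthase, at 2.58, MET2, which activates homoserine, at 2.09, MET13, a methylenetetrahydrofolate reductase, at 1.84, and MMP1, a permease for S-methylmethionine, at 1.05. With the centred BY4741 array subtracted, MMP1 read 0.79 and was not called. The genes from aspartate to homoserine, HOM3, HOM2 and HOM6, read 0.37, 0.30 and 0.24. The S-adenosylmethionine synthetases SAM1 and SAM2 read -0.42 and 0.17, and SAH1, which clears S-adenosylhomocysteine, read 0.01. Among 10 genes of transsulphuration and sulphur permeases, STR3, the cystathionine beta-lyase, read 1.98 and MUP1, the high-affinity methionine permease, read 1.21. The genes of the opposite direction, CYS3 and CYS4, read 0.64 and -0.51 and were not called. Of the regulators, MET28 was higher at 1.51, and it had no value on the BY4741 array. MET30, the ubiquitin ligase subunit that restrains Met4, read 0.96, just short of the rule, MET4 read 0.45, MET32 read 0.39, MET31 read -0.30 and CBF1 read -0.70.

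**Figure D2:**
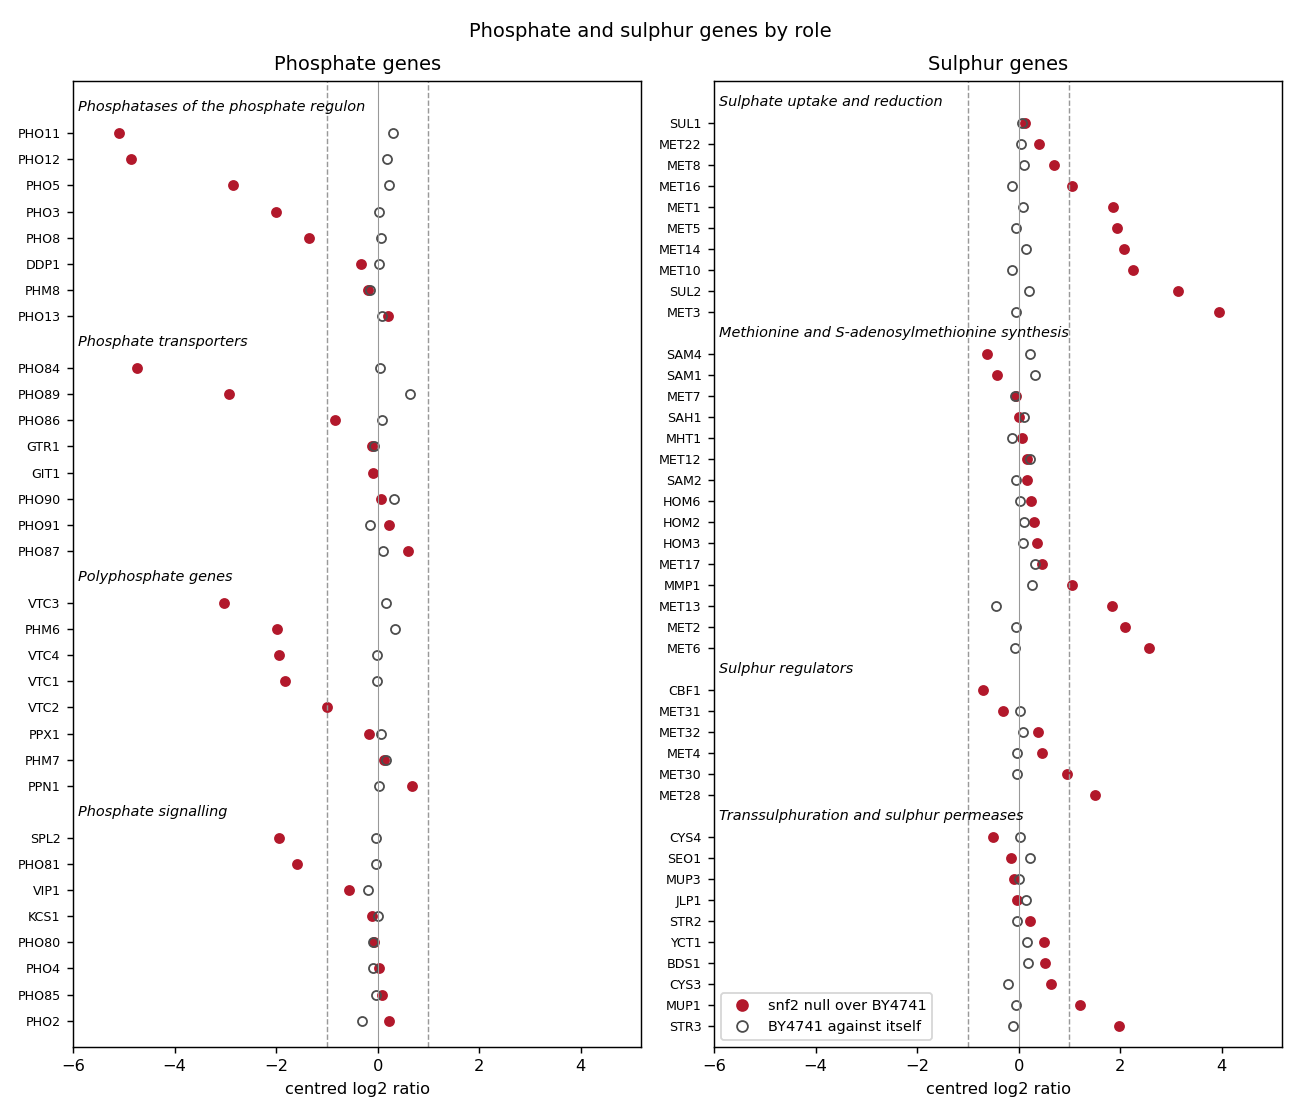
Centred log2 ratios (horizontal axis) of the phosphate genes (left) and sulphur genes (right), grouped by role, for the snf2 null over BY4741 (red) and for BY4741 against itself (open circles, absent where there was no value). Dashed lines mark 2-fold. PHO84 stands at -4.74 and MET3 at 3.95, while the open circles stay between -0.44 and 0.64.

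SER3, the phosphoglycerate dehydrogenase that begins serine synthesis, was the highest feature of the array at 4.89, against 0.14 on the BY4741 array. Its isoenzyme SER33 read 1.39. The next steps, SER1 and SER2, read 0.05 and -0.22, and the serine deaminase CHA1 read -0.52. Of the genes of glycine cleavage, GCV1, GCV2 and GCV3 went the other way and were lower at -1.75, -1.11 and -1.01. LPD1, another subunit of glycine cleavage, read 0.23 and was not called. With the centred BY4741 array subtracted, GCV2 read -0.97 and was no longer called. The serine hydroxymethyltransferases SHM1 and SHM2 read 0.07 and -0.20, and the one-carbon enzymes MTD1, MIS1 and ADE3 read -0.46, -0.17 and 0.32. Within these 19 genes, the calls were limited to the first enzyme of serine synthesis and to GCV1, GCV2 and GCV3.

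Purine salvage held 2 calls. Of 11 measured genes of purine salvage and uptake, 2 were lower, the hypoxanthine-guanine phosphoribosyltransferase HPT1 at -1.13 and the adenine deaminase AAH1 at -1.04. They read 0.47 and 0.37 on the BY4741 array, and the list median was -0.49 in the null and 0.12 on that array. The purine permease FCY2 read -0.61 and the adenine phosphoribosyltransferases APT2 and APT1 read -0.59 and -0.58. In purine synthesis, 0 of 19 genes were called, and the median was -0.15 in the null and 0.18 on the BY4741 array. ADE8 and ADE4 were the lowest at -0.62 and -0.61, while IMD2 and IMD3, inosine monophosphate dehydrogenases of guanine synthesis, were the highest at 0.67 and 0.61. In the pyrimidine list, 0 of 16 genes were called, and the CTP synthase URA8 and the carbamoyl phosphate synthetase URA2 stood highest at 0.96 and 0.89, against 0.03 and -0.06 on the BY4741 array.

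Arginine and proline genes held 3 higher and 1 lower call. All 8 measured synthesis genes lay above the median, and the last enzymes, the argininosuccinate synthetase ARG1 and the argininosuccinate lyase ARG4, were higher at 2.08 and 1.34. CPA1, which supplies carbamoyl phosphate, read 0.84. In the breakdown list, which also holds regulators, permeases and the proline synthesis gene PRO3, 8 of 12 genes lay above the median. Of its breakdown enzymes, the ornithine transaminase CAR2 was lower at -3.12, against -0.49 on the BY4741 array, while the arginase CAR1 read 0.43. The proline permease PUT4 was higher at 1.397 with no value on the BY4741 array, and the proline oxidation genes PUT1 and PUT2 read -0.16 and 0.27. The arginine regulators ARG80, ARG81, ARG82 and MCM1 read 0.44, 0.09, 0.00 and -0.35.

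Other amino acid pathways held single calls. The cytosolic branched-chain aminotransferase BAT2 was lower at -2.30, while the mitochondrial BAT1 read -0.48, and the median of 12 branched-chain genes was -0.27. HIS4 was lower at -1.26, and HIS1 and HIS6 read -0.63 and -0.30, while HIS5, HIS7 and HIS2 ran from 0.09 to 0.32. HIS3, of which BY4741 has no working copy, read 0.04. ARO10, a phenylpyruvate decarboxylase that breaks aromatic amino acids down, was lower at -1.19, but it also read -0.59 on the BY4741 array, and with that array subtracted it read -0.61 and was not called. The glutamine synthetase GLN1 was higher at 1.26, against 0.07 on the BY4741 array, and GDH1, the glutamate dehydrogenase of ammonium assimilation, read 0.63. The asparagine synthetases ASN1 and ASN2 read -0.79 and -0.41. Of 10 lysine genes none was called, and LYS20, the homocitrate synthase, was the lowest at -0.84.

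Of 19 measured amino acid permeases, 2 were higher and 1 was lower, beside 2.85% called over all features. The higher ones were MUP1 and PUT4, given above. The tyrosine and tryptophan permease TAT1 was lower at -1.06, against 0.36 on the BY4741 array, and the general permease GAP1 read 0.01. The ammonium permeases MEP1, MEP3 and MEP2 read 0.97, 0.72 and 0.29, and ATO3, a putative ammonium exporter, was lower at -1.29. The peptide transporter PTR2 was lower at -1.29, and its repressor CUP9 read -0.42. The oligopeptide transporter OPT1 read -0.61. Of 16 nitrogen catabolite genes none was called, and the GATA factors GLN3 and GAT1 read 0.15 and -0.09.

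Iron uptake also split by route. Siderophores are iron chelators made by other microbes, and yeast imports their iron complexes or strips the iron off by reduction. All 10 measured siderophore genes lay below the median and 5 were lower, with a list median of -1.19 in the null and -0.05 on the BY4741 array. The transporters SIT1, ARN1, ENB1 and ARN2 read -2.81, -1.53, -1.53 and -1.44. The cell wall mannoproteins FIT2, FIT1 and FIT3, which hold siderophores at the surface, read -1.55, -0.93 and -0.70, against -0.52, -0.29 and -0.25 on the BY4741 array, and FIT2 alone of the 3 was called. Of 19 genes of reductive uptake and its regulators none was called. The reductases FRE2 and FRE1 read -0.87 and -0.83, the oxidase FET3 and permease FTR1 read -0.17 and -0.29, and the activator AFT1 read 0.07.

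Copper and zinc genes held 1 call between them. In the copper list the reductase FRE7 read -0.96, the superoxide dismutase chaperone CCS1 -0.81, the transporter CTR1 -0.64 and the metallothionein copies CUP1-2 and CUP1-1 -0.63 and -0.61. The median of 12 copper genes was -0.35 in the null and 0.06 on the BY4741 array, and the activator MAC1 read 0.23. The high-affinity zinc transporter ZRT1 was lower at -1.38, but it read 0.52 on the BY4741 array, while ZRT2, ZRC1 and the activator ZAP1 read -0.36, -0.19 and 0.10.

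In carbon metabolism, glucose phosphorylation held 1 higher call and the glycolytic list 2. The glucokinase GLK1 was higher at 1.83, against -0.88 on the BY4741 array. HXK1 read 0.92, EMI2 0.89 and HXK2, the main hexokinase on glucose, 0.38, against -0.51, -0.48 and -0.09 on the BY4741 array. The minor phosphoglycerate mutase GPM2 and pyruvate kinase PYK2 were higher at 1.12 and 1.04, against -0.29 and -0.25. The main mutase GPM1 read -0.06, and the main pyruvate kinase CDC19 had no value in the null. TDH2, TDH3, PGK1 and ENO1, which are also among the most abundant glycolytic transcripts of yeast, had no value in the null either, so the main glycolytic enzymes are only partly covered. FBA1, TPI1, PGI1 and ENO2 read 0.24, 0.20, -0.36 and -0.30.

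Enzymes that feed and drain the central intermediates held further calls. The pyruvate carboxylase PYC1 and the peroxisomal citrate synthase CIT2 were higher at 1.14 and 1.03, and the cytosolic malate dehydrogenase MDH2 read 0.86. The gluconeogenic enzymes PCK1 and FBP1 read 0.62 and 0.05, and the glyoxylate enzyme ICL1 read 0.20. ADR1, the activator of ethanol and fatty acid use, was higher at 1.82 and ALD4, the mitochondrial aldehyde dehydrogenase, at 1.81, and they read -0.49 and -0.53 on the BY4741 array. ADH2, a known target of Adr1, read 0.15, and none of 25 genes of fatty acid oxidation and the peroxisome was called. In glycerol metabolism, the mitochondrial glycerol phosphate dehydrogenase GUT2 was higher at 1.88, the channel regulator ASK10 at 1.19 and the glycerol phosphatase GPP1 at 1.15, while GPP2 read 0.89. GPD1, which makes glycerol phosphate, read 0.10 in the null and -0.84 on the BY4741 array. GUT2 and ASK10 had no value on that array.

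Glucose sensing and transport stayed inside the rule. None of 18 hexose transporters and sensors was called, with HXT11 and HXT9 highest at 0.92 and 0.87 and the low-affinity transporter HXT3 lowest at -0.75, against 0.54 on the BY4741 array. HXT11 and HXT9 are near-identical and may cross-hybridise. The repressors MIG1, MIG2 and MIG3 read 0.24, 0.88 and -0.50, and the kinase SNF1 read -0.03. In the pentose phosphate list, SOL4, a phosphogluconolactonase, was higher at 1.25, while its relative SOL3 read -0.61. ZWF1, which begins the pathway, read 0.68. None of 18 galactose and maltose genes was called, and their range was -0.18 to 0.65.

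**Figure D3:**
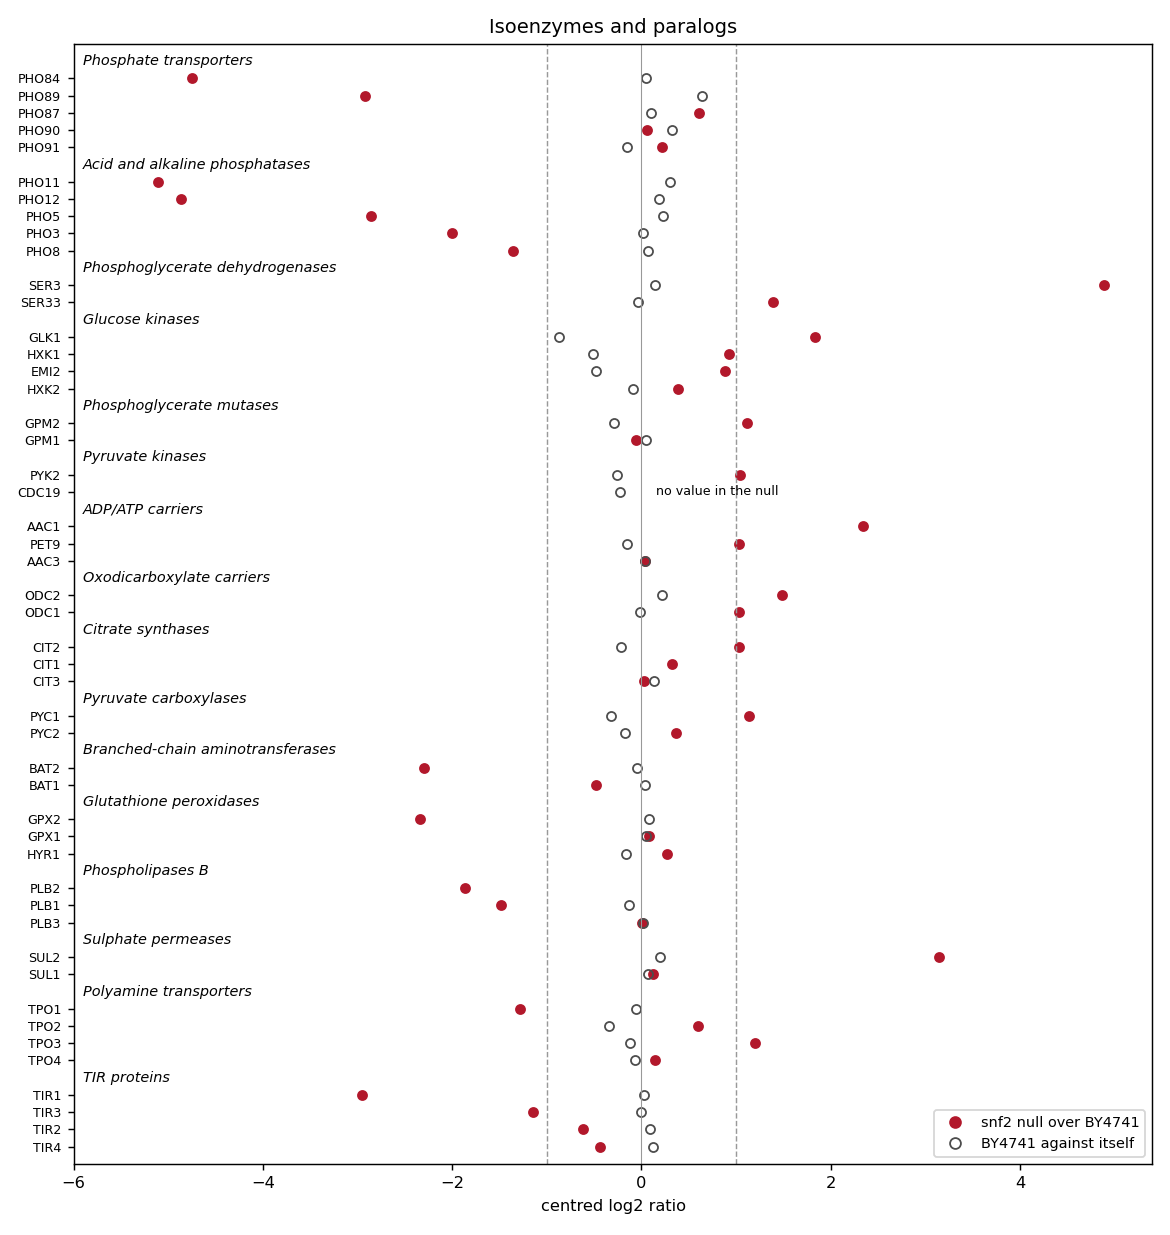
Centred log2 ratios (horizontal axis) of isoenzymes and paralogs, in sets chosen with the values known, for the snf2 null over BY4741 (red) and for BY4741 against itself (open circles, absent where there was no value). Dashed lines mark 2-fold. Members of a set differ, as for PHO84 at -4.74 and PHO87 at 0.61, or BAT2 at -2.30 and BAT1 at -0.48.

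Mitochondrial genes were split between respiration and translation. All 21 measured TCA cycle genes lay above the median, which was 0.46 for the list in the null and -0.12 on the BY4741 array, and IDH1, of isocitrate dehydrogenase, was the only call at 1.16. LSC2, SDH2 and SDH1 read 0.78, 0.64 and 0.59. Of 16 ATP synthase genes, 15 lay above the median, with ATP5 at 0.80 and ATP3 at 0.76 and 0 called. The list medians were 0.50 in the null and -0.07 on the BY4741 array. The cytochrome bc1 list had a median of 0.43, with QCR2 at 0.78 and RIP1 at 0.68, but CYC1, the main cytochrome c, read -0.49. In cytochrome c oxidase, the aerobic subunit COX5A read 0.59 and the hypoxic subunit COX5B -0.51. Among 24 mitochondrial carriers, 4 were higher and 0 lower, the ADP/ATP carriers AAC1 and PET9 at 2.35 and 1.03 and the oxodicarboxylate carriers ODC2 and ODC1 at 1.49 and 1.04. The hypoxic carrier AAC3 read 0.04. Mitochondrial ribosomal proteins did not share this side, with 56 of 67 below the median and a list median of -0.12. HAP4, the limiting subunit of the activator of respiration genes, read 0.92, and ROX1, a repressor of hypoxic genes, was higher at 1.04, while the hypoxic genes ANB1 and HEM13 read -0.62 and -0.35.

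General stress genes contained 5 higher and 0 lower of 36 measured. HSP12, a small protein that protects membranes, read 3.54 and RTS3, linked to protein phosphatase 2A, read 2.84. YGP1, SOL4 and HSP26 read 1.31, 1.25 and 1.06. The list median was 0.30 in the null and -0.19 on the BY4741 array, where its lowest member read -0.61. HSP42, TSL1 and HSP104, which are not on this list, read -1.17, -1.06 and -0.996 on the BY4741 array. The part of these BY4741 values in the null values was not tested. Other classic members of the general stress list were not called. The catalase CTT1 read 0.44, DDR2 read -0.12 and DDR48 read -0.30. The activators MSN2 and MSN4 read 0.09 and 0.10. In the trehalose pathway TSL1 was higher at 2.12, against -1.06 on the BY4741 array, where it was among the 3 lowest features. TPS1, TPS2 and TPS3 read 0.70, 0.56 and -0.09. Of 12 glycogen genes none was called, with the synthase GSY1 at -0.51 and the phosphorylase GPH1 at 0.37.

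The Hsp70 and Hsp90 chaperones of the cytosol did not follow HSP12. None of 23 genes of Hsp70, Hsp90 and their partners was called, and 17 lay below the median. Their list median was -0.17 in the null and -0.26 on the BY4741 array, and with the centred BY4741 array subtracted it changed sign, to 0.08. HSP42 and HSP104, small heat shock protein and disaggregase, read 0.75 and 0.26 in the null, against -1.17 and -0.996 on the BY4741 array. Subtraction of that array therefore raises both. None of 18 chaperones of the endoplasmic reticulum was called, and the largest value was that of PDI1 at 0.51.

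Redox genes held 1 call of 30, near the 2.85% called over all features. GPX2, a glutathione peroxidase-like protein, was lower at -2.34, while its relatives GPX1 and HYR1 read 0.08 and 0.27. The thiol peroxidases AHP1 and PRX1 read 0.77 and 0.68. YHB1, the flavohaemoglobin that removes nitric oxide, was the fourth lowest named gene at -4.61, against 0.01 on the BY4741 array. SFA1, which acts on S-nitrosoglutathione, read -0.06, SSU1, a sulphite pump, read -0.32, and its activator FZF1 read 0.03. YHB1 stood alone in its list.

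Translation genes lay below the array median with no call. All 79 measured proteins of the large ribosomal subunit and 51 of 52 of the small subunit were below the array median, with list medians of -0.44 and -0.45 in the null, against 0.09 and 0.14 on the BY4741 array. The large subunit ran from -0.58 to -0.07 and the small subunit from -0.75 for RPS22A to 0.18 for RPS23A. Of 108 ribosome biogenesis genes, 105 lay below the median, with a list median of -0.30 in the null and 0.22 on the BY4741 array, and NOP13 was lowest at -0.65. These lists stood on the other side of the median on the BY4741 array, and the part of that in the null values was not tested. Translation factors had a median of -0.25 over 43 genes, with the elongation factor subunit EFB1 at -0.73 and HYP2, eIF5A, at -0.65. GCN4, whose translation responds to amino acid supply, was the highest of that list at 0.35. The tRNA synthetases had a median of -0.12 and ran from -0.43 to 0.51, with GRS1 lowest and its paralog GRS2 highest. The median was -0.24 for subunits of RNA polymerases I and III and -0.22 for those of RNA polymerase II, with the 2 largest subunits, RPO21 and RPB2, at 0.02 and 0.14.

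Protein breakdown was near the median. None of 36 proteasome genes was called, and all but RPN4, their activator, at 0.84 lay between -0.24 and 0.33. The vacuolar proteases stood above the median. The aminopeptidase APE1 was higher at 1.61, PRB1 and PEP4 read 0.86 and 0.73, and they read -0.71, -0.45 and -0.21 on the BY4741 array. The subunits of the vacuolar ATPase ran from -0.39 for VMA7 to 0.19 for VMA1. ATG41, an autophagy gene, was higher at 2.08, and the core autophagy genes ATG1 and ATG8 read 0.10 and 0.33.

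**Figure D4:**
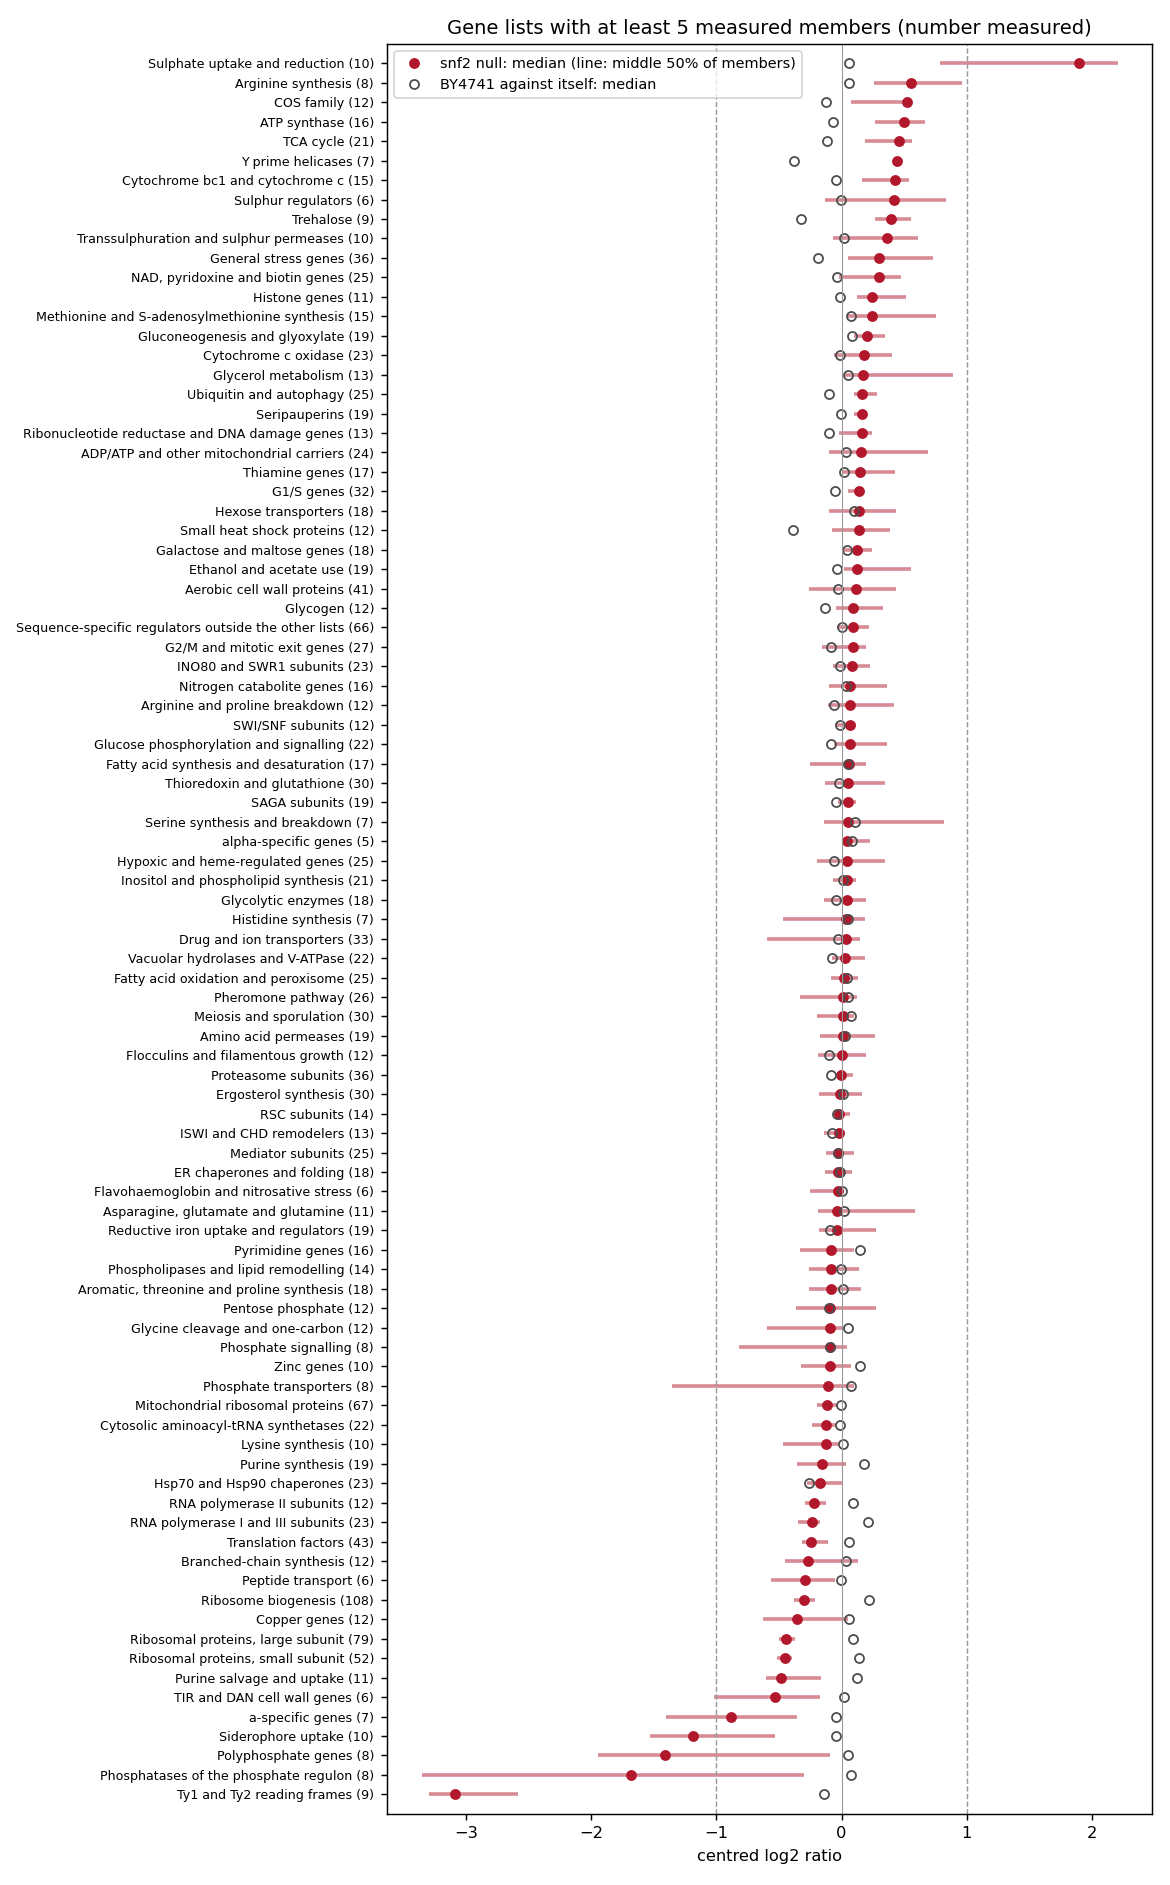
Medians of the gene lists with at least 5 measured members, in order of the snf2 null value (red, with a line over the middle 50% of members) beside the median on the BY4741 array (open circles). The horizontal axis is the centred log2 ratio and dashed lines mark 2-fold. The Ty list is lowest at -3.09 and sulphate uptake and reduction highest at 1.90, and the small and large ribosomal subunits stand at -0.45 and -0.44.

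Lipid genes held scattered calls. CHO2, which begins the methylation of phosphatidylethanolamine, was lower at -1.23, while OPI3, which completes it, read -0.01. The phospholipases B PLB2 and PLB1 were lower at -1.86 and -1.49, and PLB3 read 0.01. ATF2, an alcohol acetyltransferase, was lower at -1.48, and CLD1, which remodels the mitochondrial lipid cardiolipin, was higher at 1.58. The fatty acid desaturase OLE1 was higher at 1.33 and the acyl-CoA synthetase FAA3 lower at -1.20. The fatty acid synthase genes FAS1 and FAS2 read -0.57 and -0.27. None of 30 ergosterol genes was called. CYB5, HMG1 and ERG28 were lowest at -0.66, -0.63 and -0.62, and ECM22, an activator of the pathway, was highest at 0.88. DAP1, a haem protein that aids the pathway and was on no list, was lower at -1.35.

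Of 33 drug and ion transporters, 4 were lower and 1 was higher. The ABC transporters PDR5 and SNQ2 read -2.11 and -1.003, the transporters QDR2 and TPO1 -2.08 and -1.29, and all 4 were lower, with BY4741 array values between -0.06 and 0.15. After subtraction of that array SNQ2 read -0.95 and was not called. The activator PDR3 read -0.73 and PDR1 read 0.29. YOR1 and PDR12 read -0.60 and -0.52, but PDR15 and PDR10 read 0.03 and 0.62. The polyamine transporters went both ways, with TPO1 lower and TPO3 higher at 1.20. The plasma membrane proton pump PMA1 read 0.40.

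Cell wall genes divided by family. Of the 6 TIR and DAN genes, which are induced without oxygen or in the cold, TIR1 and TIR3 were lower at -2.96 and -1.15, TIR2 and TIR4 read -0.62 and -0.44, and DAN1 and DAN4 read -0.09 and 0.28. The related seripauperins ran from -0.05 to 0.39 over 19 genes with none called. Among 41 aerobic wall genes, the transglycosylase CRH1 was higher at 1.08, CWP2 and the glucan synthase FKS1 read 0.88 and 0.76, and PST1, EGT2 and UTR2 read -0.89, -0.82 and -0.76. Outside the lists, the peripheral membrane protein ZEO1 was lower at -2.72 and the mannosyltransferase MNN1 at -1.59. The related membrane proteins MRH1 and YRO2 were lower at -1.81 and -1.39.

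Vitamin genes gave 1 call, PHO3, which is also listed with the phosphatases. THI5, THI11, THI13 and THI12, near-identical genes of thiamine synthesis, read between 0.56 and 0.85. Of 25 genes for NAD, pyridoxine and biotin, BNA3, BNA4 and PNC1 stood highest at 0.82, 0.75 and 0.61, and the biotin transporter gene BIO5 lowest at -0.96. PNC1 read -0.60 on the BY4741 array, and BIO5 had no value there.

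The mating lists held calls for a-specific genes. The a-specific genes are those an a cell needs to signal to and receive signals from alpha cells. All 7 measured members lay below the median and 3 were lower, the a-factor genes MFA1 and MFA2 at -1.66 and -1.43 and BAR1, the protease that destroys alpha-factor, at -1.38. The agglutinin subunit AGA2, the alpha-factor receptor STE2 and the a-factor exporter STE6 read -0.88, -0.46 and -0.26. STE14, which is counted in the list but was not among the planned markers of a cells, read -0.04, close to the array median. The list medians were -0.88 in the null and -0.04 on the BY4741 array. ASG7, another marker of a cells, had no value in the null. The alpha-cell markers MF(ALPHA)1, MF(ALPHA)2, STE3 and SAG1 read 0.05, 0.02, 0.44 and 0.23, and AFB1, the barrier protein of alpha cells, read -0.48, against 0.15 on the BY4741 array. None of these 5 was called. The sporulation markers IME1, SPO13, SPS4 and NDT80 read 0.18, 0.05, 0.06 and -0.20. A ratio gives no level, so these markers compare the channels only.

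In the pheromone pathway, 1 of 26 genes was called, near the 2.85% called over all features. SST2, which shuts the G protein off, read -1.03, with the kinase FUS3 at -0.99 and the cell cycle inhibitor FAR1 at -0.93 just short of the rule. The G protein genes GPA1, STE4 and STE18 read -0.41, -0.49 and 0.22, and the activator STE12 read 0.01. None of 30 meiosis and sporulation genes was called. NDJ1, a meiotic telomere protein on no list, was lower at -2.50, and RME1, which represses entry into meiosis, was lower at -1.34.

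Cell cycle lists held 3 calls, 1 of them PHO3, which is listed there as well. The G1 cyclin CLN3 was higher at 1.12 and its successors CLN1 and CLN2 read -0.09 and -0.07. Among 32 G1/S genes, 27 lay above the median, which was 0.14 for the list in the null and -0.06 on the BY4741 array. In the list of later phases, CLB1 was lower at -1.01 while its partner CLB2 read 0.21. CLB1 read -0.89 and was not called with the BY4741 array subtracted. ASH1, EGT2 and PCL9, genes expressed as cells leave mitosis, read -0.99, -0.82 and -0.63, against -0.26, -0.13 and -0.14 on the BY4741 array, while SIC1 read 0.08 and CDC6 0.62. None of 13 DNA damage genes was called.

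Of 66 measured sequence-specific regulators outside the other lists, 1 was higher and 2 were lower, beside 2.85% called over all features. HMS2 and RME1 were lower at -1.50 and -1.34 and STP4 was higher at 1.25. From the other lists, PHD1, an activator of filamentous growth, was lower at -1.33, and ADR1, MET28 and ROX1 were higher. TEC1, the partner of Ste12 in filamentous growth, read -0.82. HSF1, RAP1, ABF1 and REB1 read 0.07, 0.17, 0.15 and 0.06.

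The Ty1 and Ty2 retrotransposons had 9 of 28 listed reading frames measured in the null, and all 9 were lower, from -4.04 for YJR026W to -1.57 for YCL019W. On the BY4741 array the 9 lay between -0.29 and -0.01. The copies are nearly identical, so their probes share a signal, and the 19 others are not covered. The Ty4 frame YJL114W and the Ty3 frame YIL082W-A read -0.27 and 0.58 and were not called. Apart from these elements, the neighbouring BSC1, YDL038C and PRM7 were lower at -2.22, -1.88 and -1.01, although BSC1 and YDL038C were high on the BY4741 array at 0.66 and 0.76. PRM7 had no value there.

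Values were also set out by position. The median of the 16 chromosomes ran from -0.03 for V to 0.06 for I. Called genes made up between 1.94% of measured genes on XII and 5.79% on IX. For the 160 genes among the outermost 5 measured at a chromosome end, the median was 0.18 in the null and -0.04 on the BY4741 array, and 71.2% of them lay above the array median. The next 5 at each end had a median of 0.00, and genes more than 40 from an end one of -0.002. Without COS, Y prime, seripauperin and Ty genes, which are repeated families, 128 outermost genes kept a median of 0.16. The median of the 12 COS genes was 0.52 in the null and -0.12 on the BY4741 array, with COS8 at 0.80 and COS111 at -0.51. The 7 Y prime helicase genes, which are near-identical, read between 0.39 and 0.50 in the null, against -0.44 to -0.21 on the BY4741 array. By contrast, 6 of the 7 called genes among the outermost 5 were lower, namely PHO11, PHO12, IRC7, ARN2, CSS1 and the Ty frame YHR214C-B, and YPS6 was higher.

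**Figure D5:**
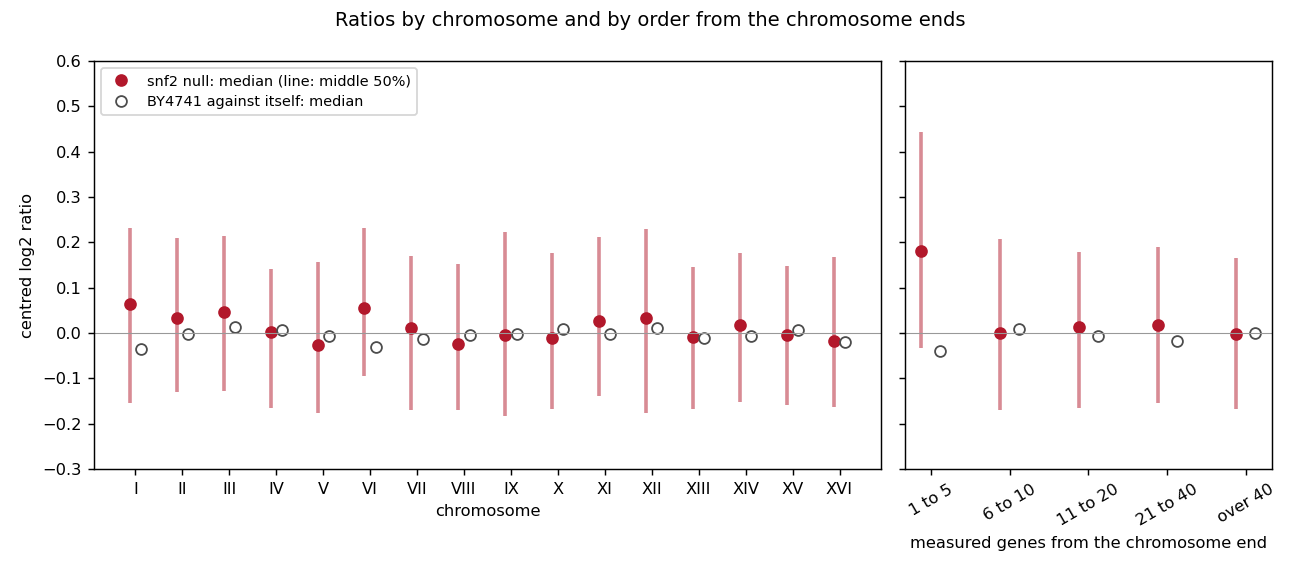
Median centred log2 ratio (vertical axis) of the measured genes of each chromosome (left) and by order from the chromosome ends (right), for the snf2 null over BY4741 (red, with a line over the middle 50% of genes) and for BY4741 against itself (open circles). Chromosome medians lie between -0.03 and 0.06, and the outermost 5 genes have a median of 0.18.

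Called genes sometimes lay side by side. Among 5372 pairs of neighbouring measured genes, 13 pairs were called in the same direction, 5 higher and 8 lower, and 2 in opposite directions. Of the 13, 8 were in tandem, 5 were divergent and 0 convergent, which is 61.5%, 38.5% and 0%, while 48.4%, 25.9% and 25.7% of all neighbouring pairs had these orientations. The divergent pairs, which share an upstream region, included PHO81 and YHB1 at -1.59 and -4.61, IDH1 and the carbonic anhydrase NCE103 at 1.16 and 1.25, TPO3 and TDA6 at 1.20 and 2.03, and YKR075C and the glutathione transferase ECM4 at 1.21 and 1.37. YKR075C read 0.50 on the BY4741 array, and with that array subtracted it read 0.70, which ends its call and that of the pair. Tandem pairs included PHO3 and PHO5, HMS2 and BAT2 at -1.50 and -2.30, PLB2 and PLB1, and PYK2 and PUT4 at 1.04 and 1.397. The opposite pairs were SHR5 at 1.07 beside ZEO1 at -2.72, and PUN1 at 1.02 beside INA1 at -1.77, and PUN1 read 0.96 with the BY4741 array subtracted. These counts describe 1 array. The pairs are not all independent, since they include the Ty frames YCL019W and YCL020W and the Ty frame YHR214C-B beside PHO12. Related neighbours, PHO3 with PHO5 and PLB2 with PLB1, may share probe signal. A gene without a value can also lie between the members of a pair, as CTF19 does between VTC3 and IRC15.

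Some called genes lay in no list. Of the 69 named higher genes 20 were on none, and of the 87 named lower genes 22 were on none. The highest were the mitochondrial protein gene FMP48 at 2.84, ATG41 at 2.08 and TDA6 at 2.03, followed by ICS3 at 1.57 and YMR196W at 1.53. The lowest were MOR1 (YDR366C) at -2.94, ZEO1, NDJ1, IRC7, a beta-lyase that acts on cysteine conjugates, at -2.20, and CSS1 (YIL169C) at -2.17. Further lower genes were the deubiquitinase UBP12 at -1.38 and the reading frames YGR035C and YNL134C at -1.50 and -1.43. Further higher genes were the secreted protein gene PRY2 at 1.25, the cytochrome b5 reductase MCR1 at 1.05, the cytochrome oxidase assembly gene COA6 at 1.09 and the Cdc42 effector GIC2 at 1.02. A further 7 higher and 9 lower features had no gene name, between 1.02 and 2.61 and between -3.30 and -1.15.

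The threshold itself is a matter of degree. HER1, PUN1 and GIC2 were the last higher genes at 1.001, 1.02 and 1.02, and DAM1, SHY1 and MEP1 fell just short at 0.98, 0.98 and 0.97. VTC2, SNQ2 and RSN1 were the last lower genes at -1, -1.003 and -1.01, and ASH1, FUS3 and SUT2 fell just short at -0.99, -0.99 and -0.97. Of 6195 features 164 had no value in the null, 136 of them named genes, and 103 of the 164 had one on the BY4741 array. Among the named genes without a value were HO, the mating type endonuclease, and the glycolytic genes given above.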

How the data were processed

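Poly(A) RNA of snf2 null and wild-type BY4741 yeast was compared on 2-colour spotted arrays, 1 array per group. The authors deposited 1 log ratio per probe, read here as log2. Scanner software, background correction, filters, centring and the combination of the dye orientations are not given in the sources used here. Channel 1 over channel 2 follows the labels, and SNF2 checks the direction.

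The platform annotation named 1 gene for 5578 of 6226 probes and left 648 unnamed, and 5573 matched the R64 gene table, used for symbols and gene order only. Probes of 30 genes were averaged, and each array was centred on its median. Genes were called by size, as described above. The 92 gene lists, the members and the call rule were chosen with earlier results of these data known. Named genes are the 20 highest and 20 lowest, called list members and up to 4 further members per list. The largest called genes on no list, regulators and markers are also named. Lists of at most 12 genes were to be named whole, but members of several are left out. Most Ty frames are given only as a range. Any others were chosen after their values were seen. Planned summaries of promoter words were not run, since no promoter sequence was used here.

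Python 3.11.15, numpy 2.4.6, pandas 2.3.3 and matplotlib 3.10.9 were used. The rule was run on simulated data, drawn from the BY4741 array with 3-fold and 4-fold changes added. That run does not cover changes near 2-fold or differences between cultures. Alternatives were other folds, no centring, subtraction of the centred BY4741 array and other feature sets.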

Additional observations from a re-analysis of the deposited data

How the results depend on the processing

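With 1 array per group no replicate could be left out, and depth enters only through signal over background, which the deposited ratios do not give. No paired analysis was possible because each group has a single array. At 1.5-fold, 258 features were higher and 197 lower, and at 3-fold 27 and 48, by construction of the threshold. The other alternatives left both counts within 1.5 times the reported 76 and 96. As deposited there were 76 and 95, since VTC2 fell just short. Named genes alone gave 69 and 87, features with a value on both arrays 69 and 91, and removal of Ty frames and unnamed probes, chosen after seeing the data, 69 and 78. Subtracting the centred BY4741 array gave 93 and 93 over 5705 features, with 64 of 69 higher and 84 of 91 lower calls on both arrays kept. It ended the calls of ARO10, GCV2, YIL060W, CIS1, CLB1, SNQ2, PUN1, MMP1 and YKR075C and of 3 unnamed probes. It also added calls in both directions, which are not named here. It changed the sign of 11 list medians. The Hsp70 and Hsp90 list read 0.083 after subtraction, where the reported value was -0.17. Hexose transporters read -0.083 (0.14 reported), reductive iron 0.13 (-0.04), meiosis -0.14 (0.01), serine -0.10 (0.05), the proteasome 0.10 (-0.005), pheromone -0.07 (0.01), RSC 0.06 (-0.02), ISWI and CHD 0.04 (-0.02), histidine -0.03 (0.04) and drug transporters -0.006 (0.03). Of the medians other than Hsp70 and Hsp90, it moved 24 by more than 0.14, the robust SD of the BY4741 array, and 67 by less. Of the calls, 44.2% were higher, against 50% after subtraction, 56.7% at 1.5-fold and 36% at 3-fold.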
